A study of Mus musculus with 17 samples.

Results

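Mouse vein grafts taken 1 h after their implantation into the carotid artery were compared with control vena cava that had not been grafted, gene by gene, on the deposited counts of reads. All libraries of these 2 groups were used, 4 from 1 h grafts and 4 from control vena cava, which are 8 of the 17 samples of the series; the 9 others are grafts taken at 6 h and 24 h. Both groups came from male C57BL/6J mice of 10 to 12 weeks of age. For a graft, the inferior vena cava of a donor mouse was pulled over cuffs on the ends of the cut carotid artery of a recipient and blood flow was restored for 1 h before explantation, so the tissue has been excised, handled, reperfused by arterial blood of another mouse and exposed to arterial pressure. The groups therefore differ in all of these steps at once, and their effects cannot be told apart. Heparin and narcosis were given for surgery, and it is not stated whether the mice of the control group had them. The anastomosis zones of the grafts were removed, and RNA was amplified from a low input before sequencing. The libraries hold the wall together with any blood and perivascular tissue that stayed on it. The labels do not say which grafts shared a surgery day. The libraries are called graft 1 to 4 and control 1 to 4 here, after the numbers of the count columns.

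The first hour after a vessel is wounded is the time of immediate early genes. Their transcription starts without new protein synthesis, when kinases reach transcription factors that already sit in the cell, and many of the transcripts are short lived. The first wave holds transcription factors such as AP-1 and the EGR and NR4A families, enzymes and proteins that shut the same signals down again, and cytokines and chemokines under NF-kappaB. Neutrophils and platelets are the first blood cells to settle on injured vein, and they bring transcripts of their own.

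Total counts per library ran from 7897624 to 8359934 in the 1 h grafts and from 8569614 to 11029712 in the controls. Reads were counted per RefSeq transcript entry, and the word gene below stands for such an entry. Levels are in CPM, counts divided by the library size after TMM, the trimmed mean normalisation of edgeR. Reads are lost to genes with several RefSeq transcripts where these overlap; all 84 genes called below belong to symbols with 1 annotated entry, as did 91.2% of the genes tested. Graft 2 stood apart on the first axis of a multidimensional scaling plot (4.71, against -0.08 to 0.34 in the other grafts and -1.70 to -1.12 in the controls) and had the fewest entries with a count (10260, against 11153 to 12150 in the other grafts and 11075 to 11883 in the controls). In the sample titles, a number that appears to be the sequencing lane is 8 for all 1 h grafts and 7 for all controls, so lane and group cannot be told apart. Both groups held high levels of fat cell and heart muscle transcripts. The summed level of 15 adipocyte genes was 62197 to 135633 CPM in the 1 h grafts and 78423 to 105143 CPM in the controls, and that of 15 cardiac muscle genes was 1552 to 18940.4 CPM and 2643 to 16562 CPM. Of the defining genes of smooth muscle, Acta2 was at 145 to 431 CPM in the grafts and 150.2 to 349 CPM in the controls.

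At an adjusted p under 0.05, 82 genes were higher and 2 were lower in 1 h grafts than in control vena cava, of 9926 tested with edgeR's quasi-likelihood test, or 0.826% and 0.0201%. At these shares most short gene lists would hold no call, so a list below without calls is no result about its members. For all 84, no graft overlapped with any control. Of all genes tested, 371 (3.74%) had every graft above every control and 221 (2.23%) every graft below. Before adjustment, 458 (4.61%) higher and 231 (2.33%) lower genes had a p under 0.05. DESeq2 called 204 higher (2.06%) and 35 lower (0.353%), among them all 84 of edgeR. Over all genes tested the median log2 fold change was -0.03, and the biological coefficient of variation between libraries was 0.946. Members of gene lists that are named without a call were chosen after their values were seen, apart from the genes also followed by qPCR, and so were called genes outside the 15 largest rises and the 5 smallest p-values of each list. With each library left out in turn, 42 of the 82 higher genes and none of the 2 lower ones kept their call every time. Without control 2 the counts were 52 higher and 0 lower, and without graft 2, the library that stood apart, 66 and 7. The plot of all genes shows the calls against their level.

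**Figure D1:**
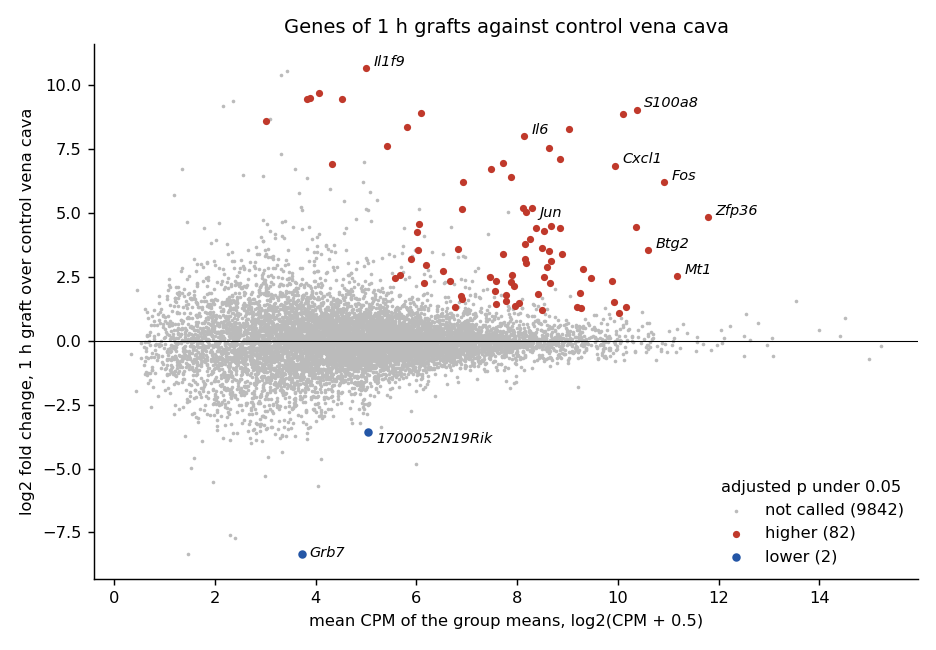
Each point is 1 of the 9926 genes tested, with the mean of both group means on the x axis (log2 of CPM + 0.5) and the log2 fold change of 1 h grafts over control vena cava on the y axis; red points are the 82 genes called higher, blue points the 2 called lower and grey points the rest. The fold changes of genes with 1 to 3 counts in a group, such as Il1f9 and Grb7, depend on the fit and are given as ratios in the text.

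Immediate early transcription factors were the list with the most calls. Of 24 listed, 22 were in the count tables and 18 were tested; 11 were higher and 0 lower, against 0.826% and 0.0201% of all genes. DESeq2 called 13 of the 18 higher, against 2.06% of all genes, and their median log2 fold change was 2.88. The 2 that were absent, Myc and Nr4a2, have several RefSeq entries. Atf3, a stress-induced factor of the ATF family that dimerises with Jun (mm9 chromosome 1, 192994175 to 193007219), was at 675, 772, 566 and 807 CPM in the grafts and 42.7, 31.7, 40.0 and 29.7 CPM in the controls, a log2 fold change of 4.29 (SE 0.24, adjusted p = 1.49e-05). Jun, a subunit of AP-1 (chromosome 4, 94715725 to 94718913), was at 560.4, 765, 429 and 699 CPM in the grafts and 11.9, 15.5, 21.6 and 18.3 CPM in the controls, a log2 fold change of 5.19 (SE 0.31, adjusted p = 1.93e-05). In both genes the lowest graft lay more than 10 times above the highest control. Fos, the partner of Jun in AP-1 (chromosome 12, 86814840 to 86818223), had 3620.1, 3888, 3493 and 4218 CPM in the grafts, against 133, 16.2, 38.2 and 20.7 CPM in the controls, a log2 fold change of 6.19 (SE 0.70, adjusted p = 0.00156). The grafts were closer to each other than the controls were, among which control 1 was the highest, and without control 1 the log2 fold change was 7.25.

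Fosb and Junb, the other early AP-1 subunits, likewise spread more among the controls than among the grafts on a log scale. Fosb was at 413, 884, 938 and 925 CPM in the grafts and 9.79, 0.103, 0.590 and 6.25 CPM in the controls, a log2 fold change of 7.54 (SE 1.06, adjusted p = 0.00721), or 8.37 without control 1. Junb was at 520.2, 553, 553 and 626 CPM and 4.75, 5.98, 11.3 and 46.2 CPM, a log2 fold change of 5.04 (SE 0.72, adjusted p = 0.00766), or 6.26 without control 4. Jund, the subunit with a high resting level in many tissues, had 104, 133, 104 and 126 CPM in the grafts and 26.3, 18.6, 31.6 and 20.4 CPM in the controls, a log2 fold change of 2.27 (SE 0.34, adjusted p = 0.00912). Fosl2 had a log2 fold change of 1.96, and its adjusted p was 0.0132, but 0.0513 without control 2 and 0.0584 without control 3 (1.42e-06 to 0.144 over its alternatives). Egr1, a zinc finger factor of injured and stretched vessels, was at 1798, 2430.0, 2561 and 3239 CPM in the grafts and 311, 56.0, 26.5 and 65.9 CPM in the controls. Its log2 fold change was 4.45, or 5.66 without control 1, and its adjusted p was 0.0155, but 0.0714 without control 2 and 0.0597 without control 4 (1.21e-12 to 0.0714 over its alternatives). Nr4a1, an orphan nuclear receptor that restrains inflammation in the vessel wall, was at 435, 355, 428 and 406 CPM in the grafts and 56.5, 111, 64.2 and 44.3 CPM in the controls, a log2 fold change of 2.56 (SE 0.31, adjusted p = 0.00240). Ier3, an early gene that protects cells from apoptosis, was at 805, 634, 821 and 678 CPM and 92.2, 89.4, 88.6 and 67.6 CPM, a log2 fold change of 3.12 (SE 0.21, adjusted p = 3.49e-05). Ier2, an early gene of growth factor responses, was higher by 4.42 on the log2 scale (adjusted p = 0.00521). Not all early genes passed: Egr2 was at 86.4, 67.0, 106 and 52.6 CPM in the grafts and 15.6, 0.412, 2.01 and 32.1 CPM in the controls (adjusted p = 0.580), and Egr3, Nr4a3 and Fosl1 were too low to be tested. Of the Kruppel-like factors, 1 of 11 was higher, namely Klf6, an early gene of injured vessel (log2 fold change 2.80, adjusted p = 0.00115). Klf2, the flow-sensing factor of endothelium, had 218, 358, 134 and 119.6 CPM in the grafts and 45.8, 75.0, 37.5 and 83.6 CPM in the controls with no overlap, at an adjusted p of 0.132 by edgeR and 0.00594 by DESeq2.

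**Figure D2:**
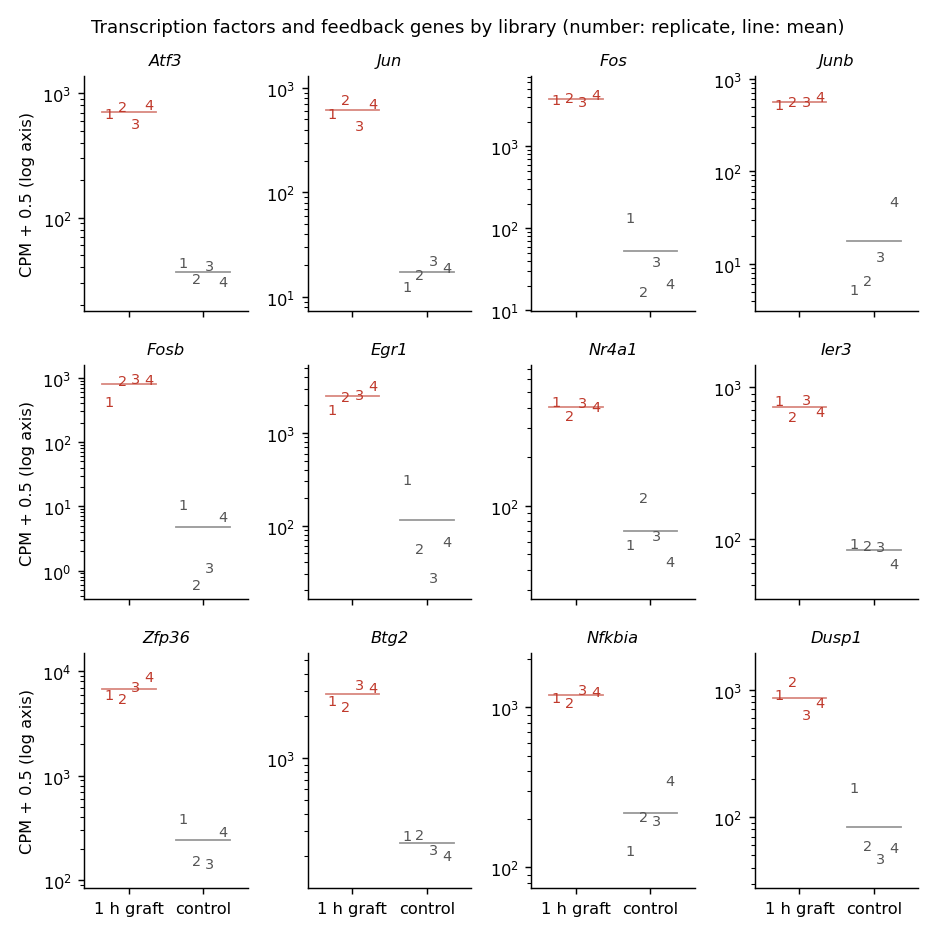
Levels of 12 early genes in each library, with CPM + 0.5 on a log axis; each number is a library (replicate 1 to 4), red for 1 h grafts on the left and grey for control vena cava on the right, and each line is the group mean. In every panel all 4 grafts lie above all 4 controls, and Fos, Fosb, Junb and Egr1 spread more among the controls than among the grafts.

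The promoters below are shown because they belong to the 4 called genes of the early factor and chemokine lists that had the smallest p-values and an entry in the promoter table. Each runs from 250 bases before to 50 bases after the RefSeq transcription start (GRCm38.p6), 5′ to 3′ on the strand of the gene, with motif matches in capitals. Positions in the text count from the transcription start.
Atf3, chr1:191183284-191183583 (minus strand): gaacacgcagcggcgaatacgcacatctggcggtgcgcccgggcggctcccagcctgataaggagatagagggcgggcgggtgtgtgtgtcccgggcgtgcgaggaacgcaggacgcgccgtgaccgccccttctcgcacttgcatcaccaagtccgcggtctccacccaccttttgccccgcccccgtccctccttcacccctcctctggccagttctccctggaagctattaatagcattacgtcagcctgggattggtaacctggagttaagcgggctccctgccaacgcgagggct
Jun, chr4:95052173-95052472 (minus strand): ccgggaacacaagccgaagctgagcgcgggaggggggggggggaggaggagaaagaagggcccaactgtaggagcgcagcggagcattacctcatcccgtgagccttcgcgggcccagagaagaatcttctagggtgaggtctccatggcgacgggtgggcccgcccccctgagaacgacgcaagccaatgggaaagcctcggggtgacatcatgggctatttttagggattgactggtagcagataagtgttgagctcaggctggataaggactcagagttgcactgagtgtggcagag
Cxcl2, chr5:90903649-90903948 (plus strand): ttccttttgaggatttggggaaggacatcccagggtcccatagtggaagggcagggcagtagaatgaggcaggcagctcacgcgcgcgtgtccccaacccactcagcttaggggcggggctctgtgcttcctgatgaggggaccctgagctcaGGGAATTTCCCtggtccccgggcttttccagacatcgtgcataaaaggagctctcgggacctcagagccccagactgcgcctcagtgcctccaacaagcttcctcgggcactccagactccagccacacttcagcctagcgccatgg
Ier3, chr17:35821463-35821762 (plus strand): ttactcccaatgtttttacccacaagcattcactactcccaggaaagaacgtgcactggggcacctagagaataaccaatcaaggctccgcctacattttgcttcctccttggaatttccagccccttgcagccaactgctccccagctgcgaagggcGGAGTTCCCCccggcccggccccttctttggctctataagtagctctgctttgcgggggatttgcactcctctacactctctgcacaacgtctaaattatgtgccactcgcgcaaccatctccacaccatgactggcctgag
The motifs searched, on both strands, were the cyclic AMP response element (TGACGTCA), the AP-1 site (TGANTCA), the CArG box of serum response factor, the NF-kappaB site and the TATA box (TATAAA). The only full matches in these 4 windows were to the NF-kappaB site, in Cxcl2 from -97 to -87, where 2 overlapping matches stand, and in Ier3 from -92 to -83. Near variants of the motifs were not searched, so windows without capitals may still hold such sites. Of the 82 genes called higher, 60 had a promoter in the table, and 10 of them (16.7%) held a match to the NF-kappaB site, against 437 (5.91%) of the 7390 tested genes with a promoter. The shares were 28.3% and 8.77% for the TATA box, 11.7% and 5.95% for the AP-1 site, 6.67% and 3.42% for the cyclic AMP response element and 3.33% and 1.65% for the CArG box. These are counts of letters and were not tested.

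Of genes that end the early response, 7 in the lists of mRNA decay, NF-kappaB inhibitors and MAP kinase feedback were called. Zfp36, which encodes tristetraprolin, a protein that binds AU-rich elements and speeds the decay of cytokine mRNAs, took the most counts of all genes called, without regard to length, with 5915, 5459.8, 7141 and 8820.4 CPM in the grafts, against 379.9, 151, 142 and 289 CPM in the controls, a log2 fold change of 4.83 (SE 0.38, adjusted p = 1.28e-04). Btg2, an antiproliferative protein that recruits deadenylases, was at 2561, 2326, 3307 and 3186 CPM in the grafts and 279, 283, 219 and 201 CPM in the controls, a log2 fold change of 3.53 (SE 0.22, adjusted p = 1.93e-05). Of 9 tested genes of mRNA decay and translation, 4 were higher and 0 lower (median 1.46), against 0.826% and 0.0201% of all genes. The others called were Zfp36l1, a relative of Zfp36 (log2 fold change 1.46), and Btg1, a relative of Btg2 (1.88). The adjusted p of Zfp36l1 was 0.0183, but 0.0533 to 0.0666 without any 1 library other than control 1 and graft 1 (2.23e-05 to 0.837 over its alternatives), and that of Btg1 was 0.0246, but 0.0582 to 0.0901 without any 1 library other than control 4 and graft 4 (8.68e-06 to 0.285 over its alternatives). Nfkbia, the inhibitor that holds NF-kappaB in the cytoplasm and is itself its target, was at 1139, 1068, 1285 and 1251 CPM in the grafts and 126, 206, 195 and 348 CPM in the controls, a log2 fold change of 2.44 (SE 0.30, adjusted p = 0.00271). It was the only member called of 12 tested NF-kappaB subunits and inhibitors, whose median was 0.53. Tnfaip3, Nfkbiz and 3 others of that list have several RefSeq entries and are absent from the count tables. Dusp1, a phosphatase that switches off MAP kinases, was at 912, 1143, 631 and 780.3 CPM in the grafts and 169, 58.5, 46.6 and 56.3 CPM in the controls, a log2 fold change of 3.39 (SE 0.44, adjusted p = 0.00405), or 4.01 without control 1. With Errfi1, an inhibitor of the EGF receptor, it was 1 of 2 called among 14 feedback genes of MAP kinases (median 0.87). Errfi1 had a log2 fold change of 1.43, and its adjusted p was 0.0187, but 0.0514 to 0.0908 without any 1 library other than control 4, graft 1 and graft 2 (3.13e-05 to 0.948 over its alternatives). Dusp6, a phosphatase specific to ERK, was at 202, 136, 185 and 111 CPM in the grafts and 151, 119, 55.2 and 143 CPM in the controls, and the groups overlapped. Socs3, the inhibitor of signalling by interleukin 6 through STAT3, was at 460.2, 716, 413 and 561 CPM in the grafts and 5.75, 45.4, 3.30 and 5.32 CPM in the controls with a log2 fold change of 5.17, or 6.80 without control 2. Its adjusted p was 0.0167, but 0.0655 without control 1 and 0.0526 without control 4 (3.41e-12 to 0.0655 over its alternatives). It had the smallest p after Junb in the STAT3 list, in which 3 of 10 tested were higher, with Junb and Cebpd, and 0 lower (median 0.93). For Cebpd, a transcription factor of the acute phase, the log2 fold change was 2.46, and its adjusted p was 0.0215, but 0.0570 to 0.158 without any 1 library other than graft 2 (4.09e-07 to 0.158 over its alternatives).

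Some cytokines and chemokines were called, and one of them had the smallest p of all genes. Il6, which drives the acute phase response and signals to smooth muscle through STAT3 (chromosome 5, 30339701 to 30346508), was at 363, 675, 539 and 654 CPM in the grafts and 2.02, 2.68, 2.71 and 1.35 CPM in the controls, or 558 ± 143 CPM and 2.19 ± 0.645 CPM (SD, n = 4 each). Its log2 fold change was 7.99 (SE 0.38, adjusted p = 6.82e-06). Its receptors were not called: Il6ra had 11.5, 8.03, 26.3 and 4.90 CPM in the grafts and 15.8, 13.1, 0.826 and 13.6 CPM in the controls, and Il6st had 292, 76.4, 209 and 291 CPM and 152, 187, 149 and 149.5 CPM, both with overlap. Cxcl1, a chemokine that draws neutrophils through Cxcr2 (chromosome 5, 91320267 to 91322141), was at 1014, 2993, 1994 and 1791 CPM in the grafts and 36.2, 17.2, 8.14 and 7.0 CPM in the controls, a log2 fold change of 6.83 (SE 0.65, adjusted p = 4.84e-04), or 7.50 without control 1. Cxcl2, its neighbour on the chromosome (91332897 to 91334935), was at 315, 566, 270.0 and 263 CPM and 4.24, 3.19, 3.89 and 2.19 CPM, a log2 fold change of 6.71 (SE 0.41, adjusted p = 1.93e-05). Both were highest in graft 2, and all grafts lay above all controls by more than 10 times. Of other chemokines of that gene cluster for the same receptor, Ppbp (below) was called, and Cxcl5 and Cxcl3 were not. Cxcl5 had 14.2, 29.4, 0.725 and 12.7 CPM in the grafts and 1.21, 2.06, 0.826 and 1.77 CPM in the controls (adjusted p = 0.598), and Cxcl3 had 4.43, 42.8, 5.92 and 1.75 CPM and 0.707, 1.13, 0.708 and 1.10 CPM (adjusted p = 0.481). In the list of 7 tested neutrophil chemokines and their receptors, 3 were higher (with Ppbp, below) and 0 lower, the median being 3.97 on the log2 scale. All 7 were higher at an unadjusted p under 0.05. Of all genes tested, 0.826% were called higher and 4.61% were higher at an unadjusted p under 0.05. Ccl2, which draws monocytes (chromosome 11, 81849073 to 81850955), was at 579.5, 873, 1127 and 557 CPM in the grafts and 44.1, 25.2, 32.9 and 37.2 CPM in the controls, a log2 fold change of 4.49 (SE 0.32, adjusted p = 6.15e-05). Ccl7, which lies beside it (81859214 to 81861027) and acts on the same receptor, was at 483, 1295, 1097 and 631 CPM and 38.6, 57.7, 43.8 and 27.5 CPM, a log2 fold change of 4.39 (SE 0.39, adjusted p = 3.01e-04). Ccl4, a chemokine of activated leukocytes, was at 158, 198, 79.6 and 74.2 CPM and 3.84, 7.63, 5.78 and 4.05 CPM, a log2 fold change of 4.58 (SE 0.50, adjusted p = 0.00128).

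Most other CC chemokines were not called. Of 11 tested, 3 were higher and 0 lower (5 and 0 by DESeq2), with a median of 1.04. Of all genes, edgeR called 0.826% higher and DESeq2 2.06%. Ccl5, Ccl8, Ccl9 and Ccl11 had log2 fold changes of -0.43, -0.31, 0.29 and 0.54, and their groups overlapped. Ccl3 was at 62.9, 34.2, 111 and 36.4 CPM in the grafts and 0.202, 0.412, 5.78 and 0.506 CPM in the controls (adjusted p = 0.11 by edgeR and 9.99e-06 by DESeq2). Cxcl10, a chemokine of the interferon response, had 61.4, 643, 658 and 393 CPM in the grafts and 0.606, 25.7, 0.236 and 26.9 CPM in the controls, with no overlap and a wide spread in both (log2 fold change 5.03, adjusted p = 0.178 by edgeR and 0.0118 by DESeq2). None of 14 tested interferon response genes was called by edgeR or DESeq2, and 0 had an unadjusted p under 0.05 (median 0.35). Tnf, the cytokine upstream of many of these genes, was at 5.08, 0.146, 11 and 15.4 CPM in the grafts and 0, 0, 0 and 6.84 CPM in the controls (adjusted p = 0.998). None of 11 tested genes of the TNF superfamily and 0 of 7 colony-stimulating factors and receptors were called, with 0 before adjustment and 0 by DESeq2 in both lists.

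Genes that act on matrix, clotting and vessel tone rose in part, and the cells that made these transcripts cannot be told in whole tissue. Ptx3, a soluble pattern receptor made by endothelium and smooth muscle that crosslinks hyaluronan (chromosome 3, 66023809 to 66029728), was at 156, 778, 548 and 383 CPM in the grafts and 5.05, 4.74, 8.14 and 4.47 CPM in the controls, a log2 fold change of 6.38 (SE 0.54, adjusted p = 1.99e-04). Tnfaip6, which works with it in the hyaluronan matrix, was at 231, 635, 613 and 647 CPM and 37.0, 41.4, 15.7 and 61.4 CPM, a log2 fold change of 3.77 (SE 0.47, adjusted p = 0.00318). Graft 1 was the lowest of the grafts for both. These were the 2 called of 6 tested hyaluronan genes (median 2.05), while 0.826% of all genes were called higher. Has1, a hyaluronan synthase, was at 109, 151, 203 and 119 CPM in the grafts and 0.101, 26.7, 0.472 and 25.3 CPM in the controls (adjusted p = 0.459 by edgeR and 0.0346 by DESeq2). Adamts1, a protease that cuts the proteoglycan versican, was at 370.1, 394, 568 and 727 CPM and 49.9, 65.4, 103 and 32.2 CPM, a log2 fold change of 3.04 (SE 0.39, adjusted p = 0.00398). With Mmp8, described with the neutrophil genes, it was 1 of 2 called of 18 matrix proteases and inhibitors (median 0.74). Ptgs2, the inducible cyclooxygenase (chromosome 1, 151947254 to 151955140), was at 259.7, 90.5, 246 and 359.9 CPM in the grafts and 3.53, 0.824, 7.90 and 0.928 CPM in the controls, a log2 fold change of 6.19 (SE 0.82, adjusted p = 0.00468), or 7.08 without control 3. Graft 2 was the lowest. No other of 16 tested genes of prostaglandin synthesis was called; Ptgs1, the constitutive enzyme, had 248, 160.5, 255 and 173 CPM in the grafts and 101, 119, 153 and 186 CPM in the controls, and the list's median was 0.07.

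Apold1, an early gene of activated endothelium, was at 507, 584, 693 and 1119 CPM in the grafts and 99.5, 21.1, 70.8 and 62.6 CPM in the controls, a log2 fold change of 3.51 (SE 0.46, adjusted p = 0.00427). Cyr61, a matricellular protein induced by stretch through YAP, was at 802, 591, 469.7 and 820.3 CPM and 112, 28.2, 15.8 and 58.9 CPM with a log2 fold change of 3.64, or 4.29 without control 1. Its adjusted p was 0.0115, but 0.0519 without control 2 (7.36e-11 to 0.0519 over its alternatives). It was the only member called of 12 stretch and YAP targets. Ctgf, its close relative, was at 196, 95.1, 183 and 204 CPM in the grafts and 59.7, 164, 162 and 125 CPM in the controls, with overlap, and Ankrd1 was at 3063, 173, 939 and 3652 CPM and 868, 887, 1427 and 427 CPM. Thbs1, a matrix glycoprotein of platelets and injured wall, had a log2 fold change of 1.55, and its adjusted p was 0.0132, but 0.0501 without control 1 and 0.0638 without control 3 (5.33e-06 to 0.537 over its alternatives). Plaur, the urokinase receptor, had 2.31, with an adjusted p of 0.0314, but 0.0770 to 0.11 without any 1 library other than control 1 and graft 4 (1.44e-05 to 0.190 over its alternatives). These were the 2 called of 16 genes of clotting and fibrinolysis (median 0.67), while 0.826% of all genes were called higher. Adm, the vasodilator adrenomedullin, had a log2 fold change of 1.62, and its adjusted p was 0.0286, but 0.0593 to 0.119 without any 1 library (1.11e-04 to 0.599 over its alternatives).

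None of 12 tested selectins and adhesion molecules was called by edgeR, while DESeq2 called 4 and 5 had an unadjusted p under 0.05. Of all genes, DESeq2 called 2.06% higher and 4.61% were higher at an unadjusted p under 0.05. Sele, the selectin that endothelium makes only after activation, was at 44.9, 7.74, 86.0 and 123 CPM in the grafts and 0.101, 0, 0 and 4.39 CPM in the controls (log2 fold change 5.82, SE 1.68, adjusted p = 0.270 by edgeR and 9.56e-04 by DESeq2). Selp, which endothelium and platelets store, was at 207, 104, 179 and 135 CPM and 46.4, 29.1, 42.1 and 9.37 CPM (adjusted p = 0.0778 by edgeR and 4.83e-04 by DESeq2). Icam1, a ligand of leukocyte integrins, was at 183, 171, 124 and 171 CPM in the grafts and 61.1, 63.0, 31.1 and 104 CPM in the controls (log2 fold change 1.32, adjusted p = 0.228 by edgeR and 0.0456 by DESeq2). In all 3 genes every graft lay above every control, as in 4 of the 12 tested members of the list and 371 (3.74%) of all genes tested. Vcam1 had 462, 112, 273 and 214 CPM in the grafts and 108, 119.5, 206 and 315 CPM in the controls, with overlap.

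Stress pathways split. Mt1 and Mt2, metallothioneins that bind zinc and respond to glucocorticoids, metals and oxidants and lie next to each other on chromosome 8 (96702989 to 96704225 and 96696518 to 96697467), rose together. Mt1 was at 2177, 6187, 3827 and 3529 CPM in the grafts and 674, 792, 765 and 515 CPM in the controls, a log2 fold change of 2.52 (SE 0.31, adjusted p = 0.00297). Mt2 was at 249, 824, 499 and 489 CPM and 31.8, 72.1, 75.5 and 46.9 CPM, a log2 fold change of 3.19 (SE 0.41, adjusted p = 0.00405). Both were highest in graft 2 and lowest in graft 1. In the list of 16 tested glucocorticoid targets and metallothioneins, 6 were higher and 0 lower (median 1.52), 8 were higher by DESeq2 and 12 were higher at a p under 0.05 before adjustment. The shares of all genes for these 3 counts of higher genes were 0.826%, 2.06% and 4.61%. Gadd45a, a sensor of DNA damage and stress, had a log2 fold change of 3.20, and its adjusted p was 0.0215, but 0.0787 to 0.0861 without any 1 of control 2, control 3, graft 1 and graft 2 (1.21e-06 to 0.0861 over its alternatives). Ppp1r15a, which restarts translation after stress, was at 429, 433, 311 and 366 CPM in the grafts and 38.5, 43.9, 6.49 and 57.3 CPM in the controls with a log2 fold change of 3.39. Its adjusted p was 0.0148, but 0.0653 without control 1 and 0.0624 without control 2 (4.64e-09 to 0.0653 over its alternatives). These were the 2 called of 11 stress genes of the GADD45 and p53 list (median 1.88); DESeq2 called 5. Sat1, the enzyme that acetylates polyamines, was at 378, 605, 563 and 592 CPM and 133, 135, 155 and 177 CPM, a log2 fold change of 1.83 (SE 0.23, adjusted p = 0.00278).

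Other stress lists held few calls. Of 16 tested heat shock proteins, 0 were called by edgeR, 1 had an unadjusted p under 0.05 and DESeq2 called 1, with a median of 0.34. That gene was Dnajb1, at 249, 299, 303 and 313 CPM in the grafts and 1.01, 64.5, 68.6 and 67.5 CPM in the controls (adjusted p = 0.393 by edgeR and 0.0283 by DESeq2). Of 16 genes of hypoxia and glycolysis, Adm alone was called, and the median was -0.24. Gapdh, an abundant enzyme of glycolysis, averaged 0.790 CPM in the grafts and 0.573 CPM in the controls and was too low to be tested. Whether reads of Gapdh were lost in the counting per entry was not tested, so these values may not give its level. A further 3 of the 24 listed genes have several RefSeq entries and are absent, so the list is covered in part only. Hif1a, the oxygen-regulated transcription factor, was at 86.8, 132, 141 and 109.7 CPM in the grafts and 57.2, 57.4, 73.2 and 112 CPM in the controls (log2 fold change 0.65, adjusted p = 0.806). Of 17 genes of NRF2 and oxidative stress, Gsr, glutathione reductase, alone was called (log2 fold change 2.48), and its adjusted p was 0.0183, but 0.0662 to 0.0908 without any 1 library other than graft 2, graft 3 and graft 4 (1.29e-06 to 0.104 over its alternatives). Hmox1 was at 33.5, 125, 98.1 and 53.6 CPM in the grafts and 33.5, 79.5, 15.5 and 19.8 CPM in the controls, with overlap. Of 16 genes of the unfolded protein and ATF4 response, 0 were called by edgeR, 6 were higher at an unadjusted p under 0.05 and DESeq2 called 1 (median 0.56). Of all genes, 4.61% were higher at an unadjusted p under 0.05 and DESeq2 called 2.06% higher.

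Among the called genes outside all lists, which are named here after their values were seen, Kdm6b, a demethylase of histone H3 induced in activated macrophages, was at 513, 583, 681 and 892 CPM in the grafts and 190.3, 109, 139.5 and 115 CPM in the controls, a log2 fold change of 2.27 (SE 0.27, adjusted p = 0.00215). H3f3b, which encodes the replication-independent histone H3.3, was at 728, 945, 919.7 and 725 CPM and 338, 301, 354 and 358 CPM, a log2 fold change of 1.30 (SE 0.19, adjusted p = 0.00795). Nfil3, a bZIP factor, was at 42.6, 163, 148 and 134 CPM and 1.92, 6.70, 6.61 and 10.4 CPM, a log2 fold change of 4.25 (SE 0.63, adjusted p = 0.00954). Nts, which encodes the peptide neurotensin, had a log2 fold change of 2.35, and its adjusted p was 0.0172, but 0.0774 without control 1, 0.0552 without control 3 and 0.0594 without graft 1 (1.33e-06 to 0.105 over its alternatives). Gem, a small GTPase that inhibits calcium channels, had 2.33, with an adjusted p of 0.0185, but 0.0564 to 0.0827 without any 1 library other than control 2, control 4 and graft 1 (6.90e-06 to 0.12 over its alternatives). In total 58 of the 82 higher genes were in a list and 24 were in none. Others of those 24 were Sik1, Mcl1, Gng11, Ifrd1, Phlda1, Litaf, Cd93, Sertad1, Tiparp, Cd9 and Arrdc3, with log2 fold changes of 1.21 (Cd93) to 2.94 (Sertad1). Each of these lost its call without at least 1 of the 8 libraries.

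Neutrophil genes had the largest median fold change of the gene lists. Of 23 neutrophil genes, 20 were in the count tables and 15 were tested. Of these, 8 were higher and 0 lower by edgeR, against 0.826% and 0.0201% of all genes. DESeq2 called 11 higher, against 2.06% of all genes, and the median log2 fold change was 6.94. The summed level of the 20 was 1517 to 12767 CPM in the 1 h grafts and 54.5 to 195 CPM in the controls, without overlap. More neutrophils and more RNA of these genes per cell cannot be told apart in whole tissue, here or for the other cell types. S100a8 and S100a9 encode the subunits of calprotectin, the most abundant protein of the neutrophil cytosol, and lie on chromosome 3 (90472993 to 90473956 and 90496554 to 90499643). S100a8 was at 4584, 3776, 1759 and 456 CPM in the grafts and 11.4, 1.96, 2.48 and 4.39 CPM in the controls, a log2 fold change of 9.02 (SE 0.95, adjusted p = 9.58e-04), or 9.80 without control 1. S100a9 was at 3954, 3072, 1344 and 361 CPM and 1.72, 2.58, 7.31 and 6.92 CPM, a log2 fold change of 8.88 (SE 0.91, adjusted p = 8.02e-04). Mmp8, neutrophil collagenase, was at 156, 161, 65.0 and 60.4 CPM in the grafts and 0.202, 0.206, 0.472 and 0.422 CPM in the controls, a log2 fold change of 8.35 (SE 0.66, adjusted p = 1.28e-04). Retnlg, a resistin-like protein of neutrophils, was at 1246, 1339.6, 861 and 212 CPM and 2.52, 6.29, 11.1 and 6.41 CPM, a log2 fold change of 7.12 (SE 0.70, adjusted p = 5.87e-04).

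Trem1, a receptor that amplifies inflammatory signals in neutrophils and monocytes (chromosome 17, 48371903 to 48386091), was at 207, 215, 99.9 and 22.7 CPM in the grafts and 0.303, 0.103, 0.236 and 0.422 CPM in the controls, a log2 fold change of 8.90 (SE 0.88, adjusted p = 6.37e-04). Il1r2, the decoy receptor of interleukin 1, was at 752, 456, 373 and 89.5 CPM and 2.93, 7.11, 1.53 and 1.94 CPM, a log2 fold change of 6.94 (SE 0.78, adjusted p = 0.00150), or 7.60 without control 2. Fpr1, the receptor for formyl peptides, had a log2 fold change of 7.63, or 10.79 without control 2, and its adjusted p was 0.0331, but 0.0672 to 0.148 without any 1 library other than control 2 and graft 4 (6.14e-10 to 0.148 over its alternatives). Camp, Mpo and Elane, genes of granule proteins that are transcribed in bone marrow precursors, were low and not tested. Camp was at 2.73, 0, 1.09 and 0 CPM in the grafts and 0, 0, 0 and 0 CPM in the controls, Mpo at 0.260, 0, 0 and 0.117 CPM and 0.303, 0.206, 0.118 and 0 CPM, and Elane at 0, 0, 7.25 and 0 CPM and 0, 0, 10.4 and 0 CPM. These genes do not stand for all granule protein genes of the list. Cxcr2, the neutrophil receptor for Cxcl1 and Cxcl2, was at 228, 103, 133 and 51.2 CPM in the grafts and 0.404, 0.206, 3.42 and 10.2 CPM in the controls (log2 fold change 5.16, adjusted p = 0.0846 by edgeR and 1.44e-06 by DESeq2).

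Il1b, the secreted interleukin 1 of myeloid cells (chromosome 2, 129190306 to 129196875), was at 1624, 1362, 949 and 235 CPM in the grafts and 0.909, 0.721, 0.590 and 11 CPM in the controls, a log2 fold change of 8.27 (SE 1.17, adjusted p = 0.00721). Control 4 was the highest control, and without it the log2 fold change was 10.42. Il1f9, a further member of that family, had 386, 609, 544 and 410 counts in the grafts and 1 count over the 4 controls, in control 2. Its ratio to control was 2479.7 (95% counting interval 445 to 97993, adjusted p = 5.51e-04). Il1a was too low to be tested. Of 8 tested genes of the family and its receptors, 3 were higher and 0 lower (median 4.51), against 0.826% and 0.0201% of all genes. Several genes had no more than 2 counts over all controls, so a ratio of summed counts is given for them with an interval that covers counting error only. Trem3, which lies beside Trem1, had a ratio of 852 (interval 236 to 7046), and its adjusted p was 0.00954, but 0.0594 without graft 1 (1.30e-10 to 0.0594 over its alternatives). Mirt2, a long noncoding RNA, had a ratio of 1267 (227 to 50102), with an adjusted p of 0.0101, but 0.0683 without graft 1 (4.48e-11 to 0.0683 over its alternatives). Nfe2, a transcription factor of the megakaryocyte and erythroid lineages that granulocytes also express, had a ratio of 1115 (199.5 to 44071), with an adjusted p of 0.0101, but 0.0594 without graft 1 (2.48e-11 to 0.0594 over its alternatives). Stfa2l1, a stefin of neutrophils, had a ratio of 1039 (186 to 41106), with an adjusted p of 0.0288, but 0.0829 to 0.172 without any 1 library other than graft 3 and graft 4 (2.45e-08 to 0.172 over its alternatives).

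Some platelet genes were also called. Of 16 genes, 14 were in the count tables and 12 were tested. Of these, 4 were higher and 0 lower by edgeR, against 0.826% and 0.0201% of all genes. DESeq2 called 7 higher, against 2.06% of all genes, and the median was 3.19. The summed level of the 14 was 1041 to 3362 CPM in the 1 h grafts and 284 to 472 CPM in the controls. Ppbp, a chemokine precursor stored in platelet granules, was at 624, 869, 267 and 544 CPM in the grafts and 42.2, 14.6, 75.6 and 15.1 CPM in the controls, a log2 fold change of 3.97 (SE 0.60, adjusted p = 0.0110), or 4.59 without control 3. Gp9, a subunit of the receptor for von Willebrand factor, was at 236, 307, 109 and 186 CPM and 19.3, 26, 18.9 and 4.89 CPM, a log2 fold change of 3.60 (SE 0.53, adjusted p = 0.00954). Itga2b, the integrin chain that binds fibrinogen, had a log2 fold change of 3.53, and its adjusted p was 0.0293, but 0.0514 to 0.122 without any 1 library other than control 4 and graft 4 (1.63e-06 to 0.122 over its alternatives). Gp6, the collagen receptor, had 462 counts over the grafts and 1 over the controls, a ratio of 588 (105 to 23267), and its adjusted p was 0.0405, but 0.0769 to 0.155 without any 1 library (2.74e-07 to 0.155 over its alternatives). Pf4, platelet factor 4, was at 710.1, 1384, 394 and 789 CPM in the grafts and 303, 209.8, 275 and 181 CPM in the controls (log2 fold change 1.76, adjusted p = 0.0592 by edgeR and 2.46e-04 by DESeq2). Graft 3 was the lowest graft for Ppbp, Gp9, Gp6 and Pf4, and graft 4 for Itga2b.

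Genes of other blood cells were mostly not called. Of 17 tested macrophage and monocyte genes, Cd14 alone was called by edgeR, DESeq2 called 3 higher, and the median was -0.02. Of all genes, edgeR called 0.826% higher and DESeq2 2.06%. Cd14, the coreceptor for endotoxin, was at 548, 886, 768 and 512 CPM in the grafts and 91.7, 114, 78.9 and 83.5 CPM in the controls, a log2 fold change of 2.88 (SE 0.26, adjusted p = 3.01e-04). Lyz2, Csf1r, C1qa, C1qb and C1qc, further members of this list, had log2 fold changes of -0.09, -0.12, 0.21, -0.02 and -0.16, with overlap in each. Tyrobp, an adaptor that neutrophils share, was at 1198, 744, 656 and 162 CPM in the grafts and 145, 185, 109 and 241 CPM in the controls (adjusted p = 0.155 by edgeR and 0.00214 by DESeq2). Ptprc, the pan-leukocyte gene for CD45, has 3 annotated RefSeq entries of which 1 is in the count tables, so its reads are counted in part at most. That entry had 2.99, 0, 2.90 and 2.33 CPM in the grafts and 1.51, 7.63, 4.36 and 19.7 CPM in the controls (adjusted p = 0.998), which is no measure of the level of the whole gene. The 14 lymphocyte genes summed to 58.8 to 1603 CPM in the grafts and 421 to 3165 CPM in the controls, with 0 of 12 called, 0 below 0.05 before adjustment and 0 by DESeq2 at a median of -1.46. The 8 erythroid genes in the tables summed to 286 to 674 CPM in the grafts and 227 to 608 CPM in the controls, with 0 of 6 called, 1 below 0.05 before adjustment and 0 by DESeq2.

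**Figure D3:**
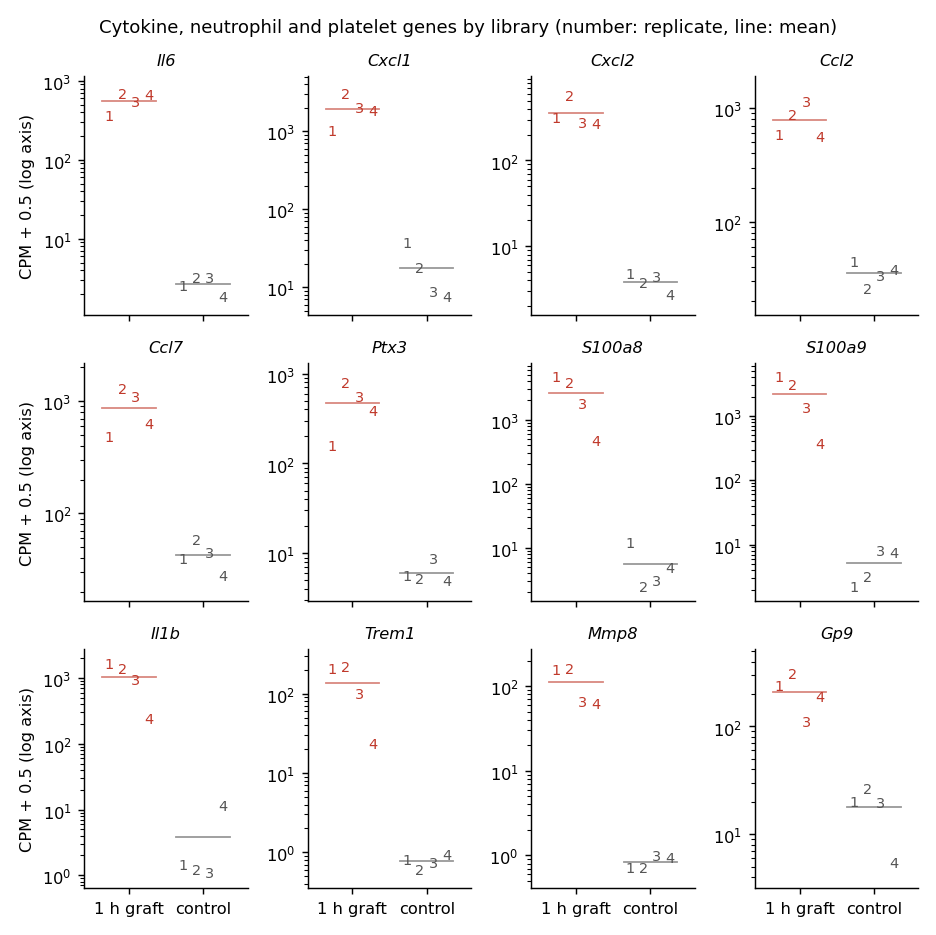
Levels of 12 cytokine, neutrophil and platelet genes in each library, drawn as in the plot of early genes, with CPM + 0.5 on a log axis, 1 h grafts in red on the left and control vena cava in grey on the right. S100a8, S100a9, Il1b, Trem1, Mmp8, Cxcl2 and Ccl2 are lowest in graft 4. Il6, Cxcl1, Ccl7 and Ptx3 are lowest in graft 1, and Gp9 is lowest in graft 3.

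Called genes differed in which graft carried them, a pattern that was looked for after the values were seen and was not tested. The 8 neutrophil genes called were all lowest in graft 4, and 7 of them were more than 3 times higher in graft 1 than in graft 4, with a median ratio of 8.75 (2.58 to 19.2). The 11 early transcription factors called had ratios of 0.446 to 1.19, with a median of 0.832, and none was lowest in graft 4. The 4 platelet genes called had ratios of 1.15 to 2.50. Among the 59 other genes called, 8 were more than 3 times higher in graft 1 than in graft 4, namely Il1b (6.91), Trem3 (10.9), Mirt2 (6.59), Mxd1 (6.95), Irg1 (22.7), Srgn (3.14), Gsr (3.01) and Alox5ap (3.19). All 15 genes over 3 were lowest in graft 4, which their choice by this ratio largely sets. Of all 82 genes called higher, 28 were lowest in graft 4. The 15 were also lower in graft 3 than in grafts 1 and 2. The opposite was seen for Nfil3, the gene that was more than 3 times higher in graft 4 than in graft 1 (0.319). Next came Tnfaip6 (0.358), Ptx3 (0.408), Fosb (0.446), Apold1 (0.453), Adamts1 (0.509), Mt2 (0.509), Il6 (0.555) and Egr1 (0.555). Chemokine genes did not share 1 order. Cxcl1 and Ccl7 had ratios of 0.566 and 0.767 and were lowest in graft 1. Ccl2, Cxcl2 and Ccl4 had 1.04, 1.20 and 2.13 and were lowest in graft 4. Irg1, the enzyme that makes itaconate in activated myeloid cells, was at 90.1, 33.0, 28.7 and 3.96 CPM in the grafts and 0.202, 0.103, 0.354 and 0.591 CPM in the controls; its log2 fold change was 6.89, or 6.06 without graft 1, and its adjusted p was 0.0270, but 0.0564 to 0.230 without any 1 library other than graft 4 (1.32e-09 to 0.230 over its alternatives). Mxd1, a partner of Max that opposes Myc, was at 419, 318, 129 and 60.3 CPM and 16.7, 3.92, 2.59 and 3.12 CPM; its log2 fold change was 5.13, or 6.17 without control 1, and its adjusted p was 0.0166, but 0.0505 to 0.0823 without any 1 of control 2, control 3, control 4 and graft 1 (2.57e-11 to 0.0823 over its alternatives). The summed neutrophil genes were at 12767, 10065, 5524 and 1517 CPM in grafts 1 to 4.

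**Figure D4:**
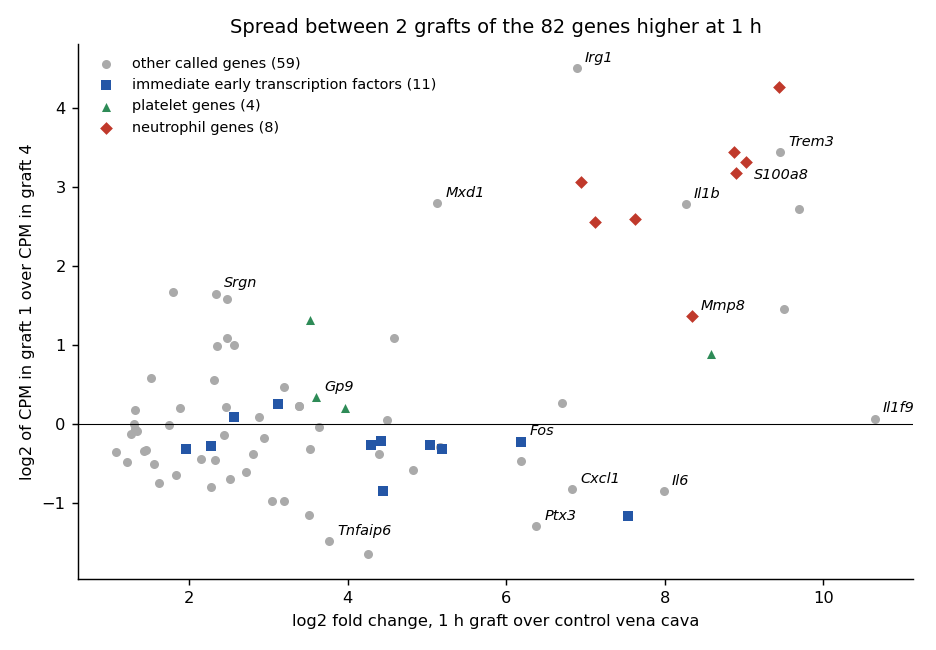
Each point is 1 of the 82 genes called higher, with its log2 fold change of 1 h grafts over control vena cava on the x axis and the log2 of its CPM in graft 1 over that in graft 4 on the y axis; diamonds are neutrophil genes, triangles platelet genes, squares early transcription factors and circles the rest. The early transcription factors lie near or below 0 on the y axis, and 7 of the 8 neutrophil genes lie above 1.5.

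The marker lists of the cells that make up the vein wall held no calls by edgeR, which called 0.826% of all genes higher and 0.0201% lower. Lists this short would mostly hold none at those shares. Of 12 tested smooth muscle contractile genes, 0 were called by edgeR or DESeq2, 2 were higher at an unadjusted p under 0.05, and the median log2 fold change was 0.20. Acta2, smooth muscle actin, was at 379.8, 145, 242 and 431 CPM in the grafts and 216, 349, 253 and 150.2 CPM in the controls (log2 fold change 0.31, SE 0.37, adjusted p = 0.998). Tagln, transgelin, was at 338, 308, 229.7 and 385 CPM and 122, 279, 241 and 182 CPM (log2 fold change 0.61, SE 0.29, adjusted p = 0.777), and Cald1, caldesmon, at 290.3, 344, 284 and 319.9 CPM and 312, 269.8, 263 and 214 CPM (0.23, adjusted p = 0.998). Cnn1, calponin, ran from 0.350 to 67.9 CPM in the grafts and from 0.101 to 61.6 CPM in the controls. Myl9, the regulatory light chain of smooth muscle myosin, was at 559, 507, 317 and 642 CPM in the grafts and 225, 234, 362 and 152 CPM in the controls (adjusted p = 0.272). Myh11, Smtn and Myocd have several RefSeq entries and are not in the count tables. Of 10 mural cell genes 0 were called, with 0 below 0.05 before adjustment and 0 by DESeq2 (median 0.32).

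Endothelial and fibroblast genes had medians above that of all genes and no calls by edgeR. Of all genes tested, 4.61% were higher and 2.33% lower at an unadjusted p under 0.05, and DESeq2 called 2.06% higher and 0.353% lower. Of 14 tested endothelial genes, 7 were higher at an unadjusted p under 0.05 and DESeq2 called 2, with a median of 1.02. The summed level of the 16 in the tables was 1361 to 3069.7 CPM in the grafts and 924 to 1197 CPM in the controls, without overlap. Vwf, von Willebrand factor, was at 844, 425, 289 and 596 CPM in the grafts and 187, 273, 188 and 148 CPM in the controls (adjusted p = 0.127 by edgeR and 0.00515 by DESeq2), and Ptprb, an endothelial phosphatase, at 555, 255, 427 and 632 CPM and 136, 189.8, 249 and 139 CPM (adjusted p = 0.122 and 0.00487). Of 17 tested fibroblast genes, 8 were higher at an unadjusted p under 0.05 and DESeq2 called 3 (median 0.63), and the 18 in the tables summed to 7548 to 10293 CPM in the grafts and 5038 to 7232 CPM in the controls. Col1a1, a chain of type I collagen, was at 1183, 778, 912 and 1166 CPM in the grafts and 436, 594, 561 and 417 CPM in the controls (adjusted p = 0.0857 by edgeR and 0.00222 by DESeq2). Mesothelial genes, which mark the outer lining of abdominal vessels, had 0 of 10 called by edgeR and 1 by DESeq2, and 2 were lower at an unadjusted p under 0.05 (median -0.84). That gene was Upk1b, at 68.7, 68.5, 124 and 72.7 CPM in the grafts and 249, 181, 159.7 and 147 CPM in the controls (adjusted p = 0.191 by edgeR and 0.0362 by DESeq2). Of 15 adipocyte genes 0 were called by edgeR or DESeq2, 2 were lower at an unadjusted p under 0.05, and the median was -0.10. Of 16 tested genes of DNA replication and mitosis 0 were called, with 0 below 0.05 before adjustment and 0 by DESeq2, and the median was 0.26.

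Of 12 genes that were also followed by qPCR, a panel that is no independent choice, 5 were higher and 0 lower (7 by DESeq2, median 1.94). These 5 were Il6, Il1b, Cxcl1, S100a9 and Nr4a1, given above with Sele, Icam1, Acta2, Cnn1, Ptprc and Hif1a. Pdgfb, a mitogen of smooth muscle, was at 36.7, 14.3, 12.7 and 4.66 CPM in the grafts and 20.9, 40.3, 5.07 and 5.40 CPM in the controls (log2 fold change -0.07, adjusted p = 0.998). Lists of housekeeping genes had no calls by edgeR or DESeq2. Of all genes, edgeR called 0.826% higher and 0.0201% lower, and DESeq2 2.06% and 0.353%. Of 25 cytosolic ribosomal proteins 0 and of 26 respiratory chain subunits 3 (lower) had an unadjusted p under 0.05, with medians of 0.01 and -0.18.

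**Figure D5:**
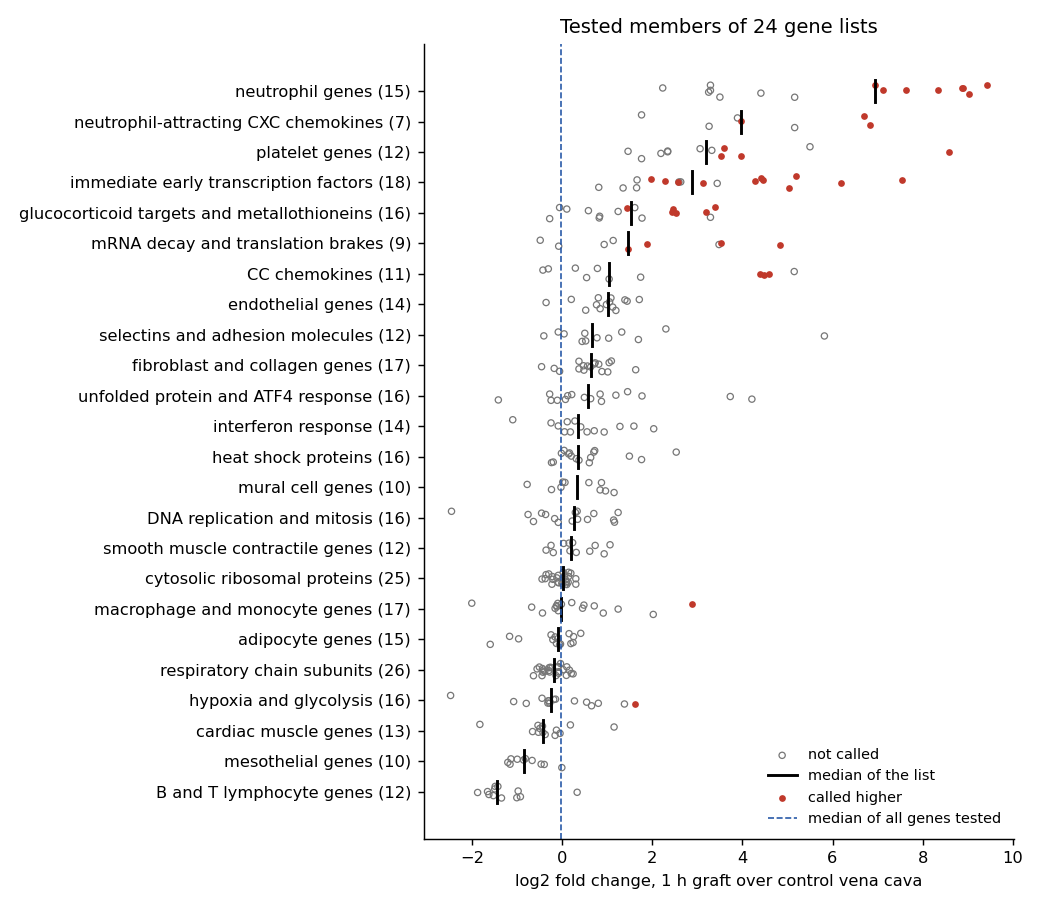
Log2 fold changes of 1 h grafts over control vena cava (x axis) for the tested members of selected gene lists (y axis, number tested in brackets), sorted by median; filled red points were called higher, open grey points were not called, black bars are list medians and the dashed line is the median of all genes tested, -0.03. Called members lie in the 7 lists at the top, apart from 1 each in the macrophage and the hypoxia list, while the lists of endothelial, mural, smooth muscle, fibroblast and mesothelial genes have medians between -0.84 and 1.02 with none called.

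Only 2 genes were called lower, and both had few counts in the grafts. Grb7, an adaptor of receptor tyrosine kinases (chromosome 11, 98307708 to 98316687), had 1, 0, 1 and 0 counts in the grafts and 103, 139, 380 and 379 counts in the controls. Its ratio was 0.00254 (95% counting interval 3.07e-04 to 0.00921), and its adjusted p was 0.0216, but 0.0519 to 0.102 without any 1 library other than control 1 and graft 2 (3.31e-08 to 0.102 over its alternatives). The transcript 1700052N19Rik, to which no function is given in the tables used here (chromosome 10, 5891400 to 5914074), had 45, 38, 24 and 48 counts in the grafts and 516, 768, 630 and 413 counts in the controls. Its log2 fold change was -3.59 (SE 0.59), and its adjusted p was 0.0166, but 0.0539 to 0.0897 without any 1 of control 1, control 2, control 3 and graft 1 (1.84e-09 to 0.234 over its alternatives).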

How the data were processed

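Libraries were prepared from amplified low-input RNA and sequenced as single 50 bp reads. After read quality control (FastQC 0.11.5) the authors used gsnap for alignment (mm9) and HTSeq 0.5.4p3, without strand, for counting per RefSeq entry. The deposited values are raw counts, so overlapping genes cannot be told apart by strand. The authors' tables keep entries to which DESeq2 1.14.1 gave an adjusted p. The 1 h columns and the control columns stood in different deposited tables and were joined by RefSeq entry, giving 13212 entries, which hold 99.7% of the summed signal (the authors' mean count over all libraries, divided by size factors) of the 29994 entries in their overall table. The authors' fold changes and p-values were not used. A further 30 columns named for 24 h grafts were not used, since there were more distinct ones (5) than labelled samples (4).

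Counts were tested with edgeR 4.0.16 in R 4.3.3 (TMM, filterByExpr, robust quasi-likelihood fit, 2 groups of 4 libraries, Benjamini-Hochberg adjustment over 9926 entries, threshold 0.05). The steps were also run on simulated counts with the same spread for every gene, smaller than that found between these libraries. That run does not show how the test does at the spread of these data. Alternatives were DESeq2 1.42.0, upper-quartile and library-total scaling, other filters, a test against a log2 fold change of 1, a fit without robust estimation, symbols with 1 entry, a fit with the 6 h libraries and leaving out each library. The labels give separate samples but not separate surgeries, so p-values measure the spread between these samples. CPM are not scaled for length. Ratios of summed counts, divided by the summed library sizes, have exact 95% intervals that cover counting error only.

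The comparison, the 55 gene lists (867 genes, of which 750 are in the count tables) and the tests were chosen with earlier results of these data known. Named genes were up to 15 with the largest rises among called genes with at least 50 counts on average in the grafts, up to 5 called members of each list, up to 2 of the most abundant members of lists with few calls, the genes the study measured by qPCR, and all genes called lower; others were chosen after their values were seen. Coordinates are those of mm9, and promoters were taken from RefSeq (GRCm38.p6), 250 bases before to 50 after the start.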

Additional observations from a re-analysis of the deposited data

Results flagged for a closer look

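Within each group of 4 libraries, the gap between the most extreme library and its nearest neighbour was set against the range of the group for each called gene, each summed list of cell type genes and each measure of library depth, and 15 of 208 such groups passed the 95% critical value of Dixon's test, which chance passes in about 5% of groups. In the 1 h grafts, graft 1 stood below the other 3 for Tnfaip6 (0.946), Fosb (0.928), Nfil3 (0.851) and Sat1 (0.847), and graft 3 stood below the others for 1700052N19Rik (0.921). In the controls, control 4 stood above the others for Il1b (0.891) and for the summed macrophage and monocyte genes (0.855), and below them for Ier3 (0.871). Control 1 was the lowest for Plaur (0.939), and control 2 was the highest for Fpr1 (0.869). Il1f9, Mirt2, Stfa2l1 and Gp6 had their single control count in control 2 and Nfe2 in control 1, which gives a value of 1.00 in each.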

How the results depend on the processing

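Upper-quartile scaling, library totals, either other filter, the fit without robust estimation and the restriction to symbols with 1 entry gave 79 to 84 genes higher, against 82, and 2 lower in each. DESeq2 called 204 higher and 35 lower, among them all 84 called by edgeR. With the 6 h libraries in the fit, 125 were higher, 76 of them shared with the 82, and 1 was lower. Tested against a log2 fold change of at least 1, 49 were higher and 2 lower. With each library left out in turn, between 52 and 76 were higher and between 0 and 7 lower: both lowest counts came without control 2 (52 and 0), 7 lower came without graft 2, 4 without graft 3, and 1 each without graft 1, control 1 or control 4. None of the 84 genes called changed direction under these alternatives. Scaling by library totals gave a median of -0.14 over all genes (log2 fold change), against -0.03 with TMM. No paired analysis was possible because the count columns of the 1 h grafts and of the controls carry no number that links a graft to a control. Only 4 libraries a group and a wide spread between them limit what could be called, and genes with several RefSeq entries are counted in part or are absent.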
